A study of Mus musculus with 64 samples.

Results

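The comparison described here sets the prefrontal cortex (PFC) of saline-injected mice killed 3 h after the injection against that of saline-injected mice killed 4 weeks after it. It holds 16 of the 64 libraries of the series, 8 in each group, which were taken by the region, treatment and time given in their labels. All 16 mice were male C57BL/6J, kept in groups on chow, and received a single intraperitoneal dose of isotonic saline at 10 weeks of age, so that the 4 week group was 14 weeks old at harvest. The mice of both groups were killed by decapitation 4 h after light onset, and per the study's methods had been sham-injected with saline on the days before. Poly-A RNA of each mouse gave 1 library. The other libraries of the series, from mice given 3 mg/kg psilocybin and from the hypothalamus of the same animals, serve here only for comparison. Time since injection, age and day of harvest all differ between the groups and cannot be told apart.

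An injection and its handling are known to engage several transcriptional programmes in the rodent cortex. Active neurons switch on immediate early genes, transcription factors that need no new protein for their induction. Corticosterone, the stress hormone of rodents, enters the brain and binds the glucocorticoid receptor, which moves to the nucleus and raises a set of target genes. Some of the same stimuli also act on the period genes of the circadian clock, and protein folding load in the endoplasmic reticulum is met by the unfolded protein response. The comparison asks which of these programmes differed between the groups, in which genes and by how much.

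The libraries held between 10630019 and 29362001 counted reads at 3 h and between 10547607 and 70361839 at 4 weeks, the deepest being 4 week replicate 3. Levels are given as counts per 1000000 (CPM) after scaling by trimmed mean of M values. Extraction pool C held replicates 1 to 4 and pool D replicates 5 to 8 of both groups, and pool entered the main fit. The 12 markers of cortical excitatory neurons were all tested and none was called, with summed levels of 3010 to 3891 CPM at 3 h and 2793 to 3445 CPM at 4 weeks. Some libraries stood apart in markers of neighbouring tissue. The summed level of 13 striatal markers was 2249 CPM in 4 week replicate 6, 965 CPM in 4 week replicate 7 and 812 CPM in 3 h replicate 6, whereas the medians of the groups were 316 CPM at 4 weeks and 323 CPM at 3 h. These are whole-tissue samples, in which fewer cells of a type and less RNA per cell cannot be told apart.

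**Figure D1:**
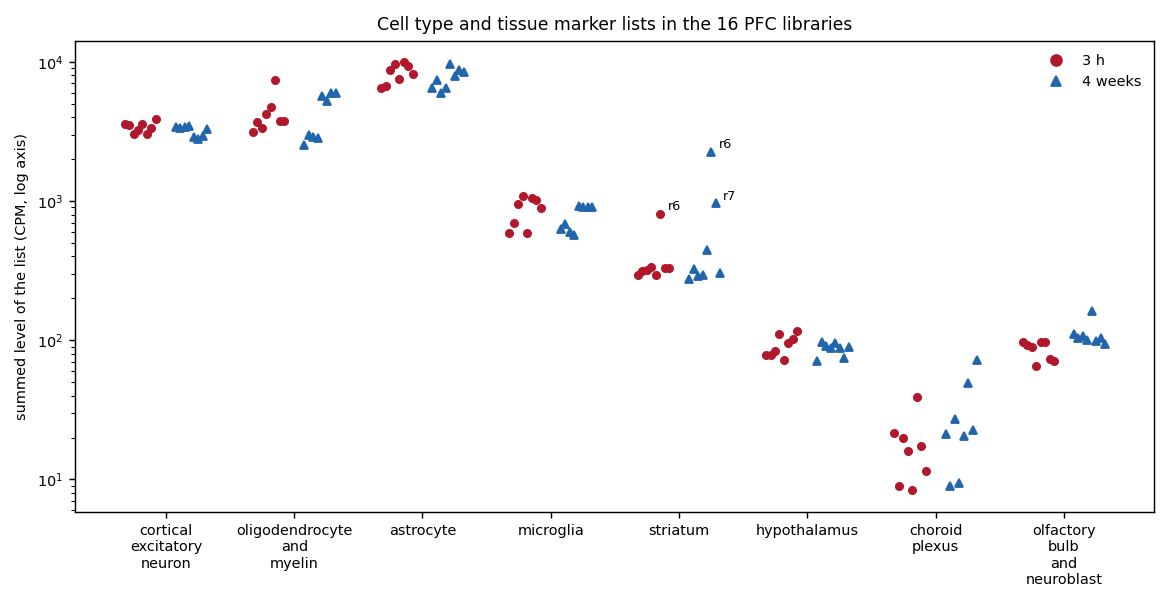
Summed level in CPM, on a log axis, of 8 marker lists in each of the 16 PFC libraries, ordered by replicate within each group, with circles for 3 h and triangles for 4 weeks. The cortical neuron list was even over all libraries, while 4 week replicates 6 and 7 and 3 h replicate 6, marked r6 and r7, were high in striatal markers.

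Of 18971 genes tested, 896 (4.72%) differed between 3 h and 4 weeks at an adjusted p under 0.05 in edgeR's quasi-likelihood test. At 3 h, 453 genes (2.39%) were higher and 443 (2.34%) lower. The differences were small for the most part. The median log2 fold change of 3 h over 4 weeks was 0.35 among the genes called higher and -0.61 among those called lower, and 17 genes were higher by at least 1 on the log2 scale while 115 were lower by at least 1. All 8 mice at 3 h lay above all 8 mice at 4 weeks for 55 of the genes called higher (61 of all genes tested, 0.322%), and below them for 18 of those called lower (21 of all genes tested, 0.111%). Within pool C alone, with 4 mice a group, 147 of all 18971 genes were called higher and 193 lower, and within pool D 99 and 41. How many of these were among the 896 was not counted. These mice are part of the full comparison, so the pools are no independent check of direction. The number of calls depended on single mice: it was 480 without 3 h replicate 4 and 1378 without 3 h replicate 5. It was 1571 when a single hypothalamus library that only shared the fit, replicate 5 of the psilocybin mice at 4 weeks, was left out as a candidate for a sample that the study had removed for wound healing and immune genes, and all 896 genes were among them. It was 579 without the 3 libraries high in striatal markers, and 274 of the higher and 252 of the lower genes were called there too.

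The genes called in the 2 directions differed in level. Of the 10347 genes with a mean level over 10 CPM, 400 (3.87%) were called higher and 161 (1.56%) lower. Of the 4986 genes between 1 and 10 CPM, 51 (1.02%) were called higher and 196 (3.93%) lower. Of the 3638 genes under 1 CPM, 2 (0.055%) were called higher, Procr and Rtp1, named after their values were seen, and 86 (2.36%) lower. Thus 86 of the 443 genes called lower had a mean level under 1 CPM, close to the limit of detection.

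**Figure D2:**
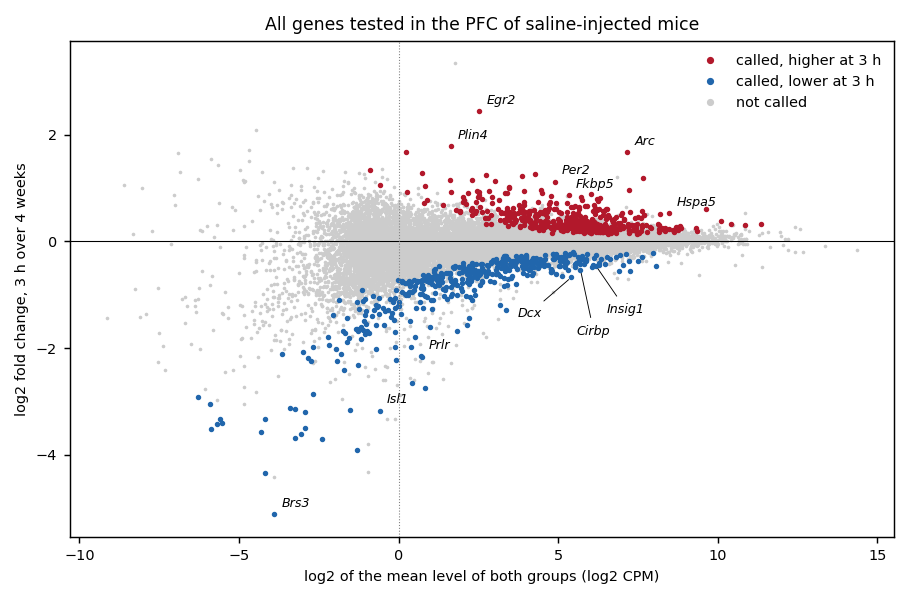
Log2 fold change of 3 h over 4 weeks (vertical axis) against the log2 of the mean CPM of both groups (horizontal axis) for every gene tested, with called genes in red (higher at 3 h) and blue (lower), and the dotted line at 1 CPM. The red points lie mostly to the right of the dotted line, while the largest negative differences lie to its left.

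Immediate early transcription factors held the largest number of calls of any list, at 48% of those tested, beside 50% in the endoplasmic reticulum list. Of the 25 tested, 12 were higher at 3 h, 0 were lower and 13 did not pass, and their median log2 fold change was 0.56 beside -0.00397 over all genes tested. Egr2, a zinc finger factor induced by neuronal activity and growth factors, was the steepest. Its level was 4.85 to 15.9 CPM at 3 h, with a median of 9.91, and 0.831 to 4.85 CPM at 4 weeks, with a median of 1.39. Of the 8 mice at 3 h, 7 lay above all mice at 4 weeks, and the log2 fold change was 2.44 (SE 0.31, n = 8 a group, adjusted p = 1.45e-07). Egr2 lies on chromosome 10 (GRCm38, 67535475 to 67540381, plus strand). RefSeq gives 5 promoter windows for it, each from 250 bases before to 50 after a start, and 4 of them hold a CArG box, the site of serum response factor, which controls many immediate early genes. That box stood in 1.63% of the 32851 windows of the table. The 250 bases before the start at chr10:67537316-67537565 (GRCm38.p6, plus strand) are shown with the box in capitals because Egr2 had the largest difference among the genes called higher.
Egr2: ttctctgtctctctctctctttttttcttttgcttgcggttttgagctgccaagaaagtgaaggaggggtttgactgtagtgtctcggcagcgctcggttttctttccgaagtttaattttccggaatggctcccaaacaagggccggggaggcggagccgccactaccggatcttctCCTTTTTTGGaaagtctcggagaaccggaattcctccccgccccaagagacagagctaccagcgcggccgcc
No CArG box was found in the windows of the other 9 called immediate early factors with a RefSeq window. This says only that these letters are not in those windows.

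The orphan nuclear receptor Nr4a3 separated the groups fully. It ranged from 23.3 to 32.7 CPM at 3 h, with a median of 26.3, and from 7.42 to 14.7 CPM at 4 weeks, with a median of 11.1 (log2 fold change 1.27, SE 0.16, adjusted p = 1.49e-07). Egr1, a relative of Egr2, was also without overlap, at 223 to 357 CPM with a median of 275 against 73.9 to 198 CPM with a median of 121 (log2 fold change 1.2, SE 0.21, adjusted p = 0.000134). So was Ier5, at 75.9 to 104 CPM against 48.1 to 69.2 CPM (log2 fold change 0.59, SE 0.09, adjusted p = 2.78e-05). The remaining called factors overlapped to some extent. Fosb, a partner of Jun proteins in the AP-1 complex, was at 9.25 to 16.5 CPM against 5.02 to 10.2 CPM, and its log2 fold change was 0.90 (SE 0.18, adjusted p = 0.000845). Nr4a1 was at 36.0 to 143 CPM with a median of 87.1 at 3 h, and at 25.5 to 108 CPM with a median of 40.1 at 4 weeks (log2 fold change 0.89, SE 0.20, adjusted p = 0.0028). Klf10, Klf4, Fosl2, Egr4 and Junb were called with log2 fold changes from 0.56 to 0.96.

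Fos, the most used marker of recently active neurons, passed only narrowly. It was at 10.6 to 30.6 CPM at 3 h, with a median of 19.8, and at 3.25 to 21.6 CPM at 4 weeks, with a median of 4.78. The groups overlapped, 3 of the 8 mice at 3 h lying above all mice at 4 weeks (log2 fold change 1.23, SE 0.36, adjusted p = 0.0325). Its call was lost when 3 h replicate 4 or 8 or 4 week replicate 1, 2, 4, 6, 7 or 8 was left out, with an adjusted p of up to 0.13 over the 26 settings run. Npas4, a factor that answers calcium influx and whose RNA is short-lived, was at 8.84 to 32.3 CPM at 3 h and at 7.12 to 33.5 CPM at 4 weeks, and did not pass (log2 fold change 0.16, adjusted p = 0.725).

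Genes that act downstream of neuronal activity gave a weaker picture of the same sign: 7 of 24 were higher, 0 lower, and the median was 0.32. Dusp4, a phosphatase that switches off MAP kinases, was at 7.74 to 15.2 CPM at 3 h, with a median of 11.0, and at 3.88 to 8.38 CPM at 4 weeks, with a median of 4.64 (log2 fold change 1.14, SE 0.17, adjusted p = 7.84e-06). Arc, whose protein regulates glutamate receptors at the synapse, had the largest difference and a wide spread. It ranged from 43.8 to 442 CPM at 3 h, with a median of 201, and from 19.6 to 249.8 CPM at 4 weeks, with a median of 35.9. The log2 fold change was 1.68 (SE 0.37, adjusted p = 0.00324), and 3 of the 8 mice at 3 h lay above all mice at 4 weeks. The call was lost when the fit was limited to the PFC libraries (adjusted p up to 0.157). The MAP kinase phosphatases Dusp5 and Dusp6 and the pseudokinase Trib1 were called with log2 fold changes of 0.83, 0.67 and 0.75, as were the kinase Sik1 (0.56) and the receptor Gpr3 (0.63). Bdnf, a neurotrophin, was at 27.0 to 44.9 CPM against 22.4 to 40.7 CPM and did not pass (log2 fold change 0.26, adjusted p = 0.0758).

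The spread within the groups was shared by these genes. Among the mice at 4 weeks, replicate 3 was the highest for 11 of the 12 called immediate early factors and for 7 of the 7 called effectors. Among the mice at 3 h, replicate 6 was the lowest for 8 and for 5 of them. Without 4 week replicate 3 the log2 fold change was 2.31 for Arc, 2.83 for Egr2 and 1.56 for Fos.

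**Figure D3:**
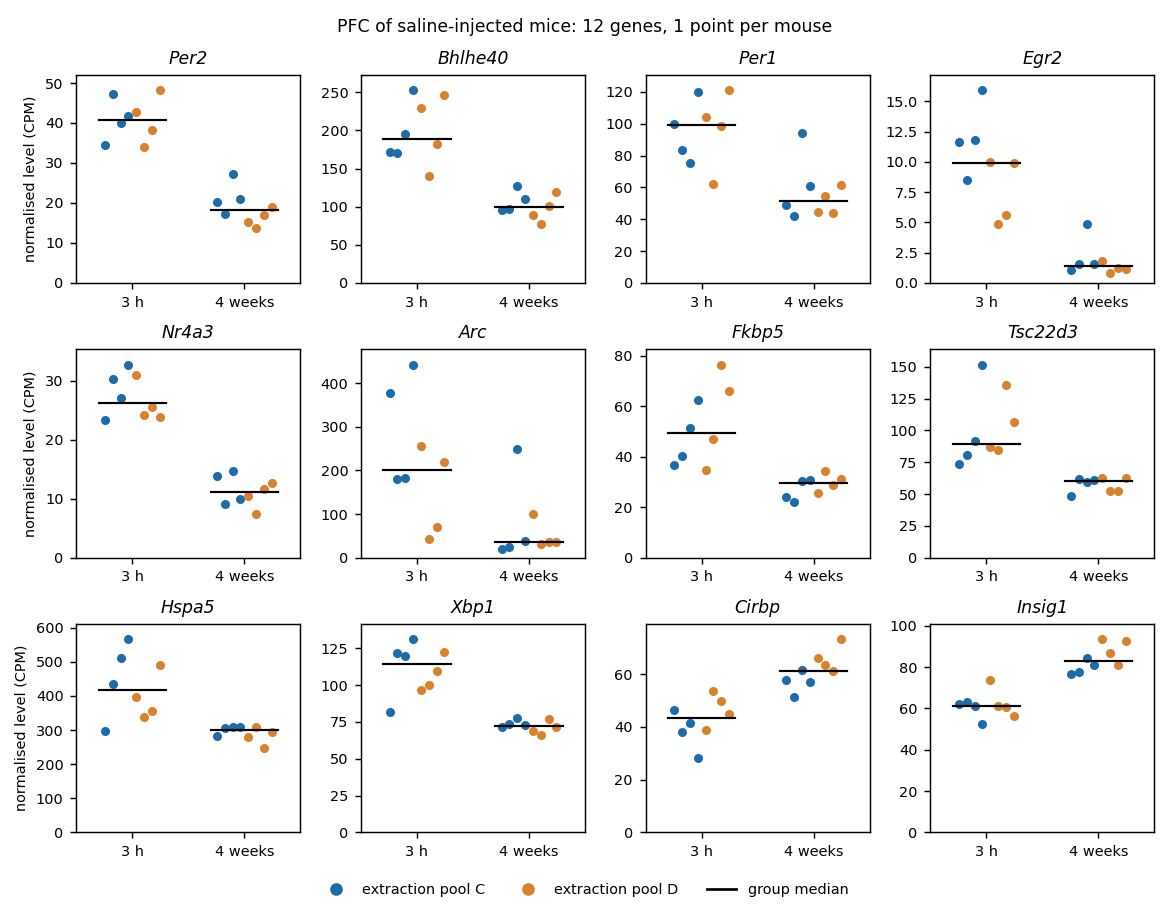
Level in CPM of 12 genes in each PFC library of the saline-injected mice at 3 h and 4 weeks, 1 point per mouse ordered by replicate, coloured by extraction pool, with the group median as a line. Per2, Bhlhe40, Nr4a3, Fkbp5, Tsc22d3, Xbp1 and Insig1 showed no overlap between the groups, whereas some mice at 4 weeks reached the 3 h range for Arc, Egr2 and Per1.

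The period genes Per1 and Per2 and the repressor Bhlhe40 were the only calls in the clock lists, and Per2 had the smallest p of all 18971 genes. The clock runs on a loop in which Arntl and Clock drive the Per and Cry genes, whose proteins then inhibit them. Per2 was at 34.0 to 48.3 CPM at 3 h, with a median of 40.8, and at 13.8 to 27.3 CPM at 4 weeks, with a median of 18.1. No mouse overlapped, and the log2 fold change was 1.12 (SE 0.11, adjusted p = 2.91e-10). Bhlhe40, a repressor that binds the same E-box elements as Arntl and Clock, was also without overlap, at 140.2 to 253 CPM with a median of 189 against 77.3 to 127 CPM with a median of 99.1 (log2 fold change 0.96, SE 0.10, adjusted p = 2.84e-09). Per1 was at 62.0 to 121 CPM at 3 h, with a median of 99.2, and at 41.8 to 94.3 CPM at 4 weeks, with a median of 51.5, and 5 of the 8 mice at 3 h lay above all at 4 weeks (log2 fold change 0.76, SE 0.12, adjusted p = 1.59e-05).

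The remaining clock genes did not pass. Of 17 core clock genes, 2 were higher and 0 lower, with a median of 0.10, and of 6 output factors, Bhlhe40 alone was called. The activator Arntl was at 40.5 to 54.8 CPM at 3 h and 41.2 to 63.6 CPM at 4 weeks (log2 fold change -0.02, adjusted p = 0.906). Dbp, an output factor that follows the phase of the clock closely, was at 21.8 to 40.2 CPM against 21.0 to 47.4 CPM (-0.11, adjusted p = 0.721). Nr1d1 differed by 0.13 (adjusted p = 0.316) and Cry1 by 0.18 (adjusted p = 0.233) on the log2 scale.

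Of 23 glucocorticoid receptors and targets, 9 were higher at 3 h, 0 were lower and 14 did not pass, with a median log2 fold change of 0.56. Fkbp5, a co-chaperone that damps the receptor, ranged from 34.9 to 76.4 CPM at 3 h, with a median of 49.2, and from 22.2 to 34.2 CPM at 4 weeks, with a median of 29.6 (log2 fold change 0.86, SE 0.11, adjusted p = 1.48e-07). Tsc22d3, which encodes the glucocorticoid-induced leucine zipper, was at 73.6 to 152 CPM with a median of 89.6, against 48.4 to 62.8 CPM with a median of 60.0 (log2 fold change 0.82, SE 0.10, adjusted p = 1.53e-07). Neither gene overlapped between the groups.

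The lipid droplet protein Plin4 had a larger difference from a low level. It was at 1.05 to 13.9 CPM at 3 h, with a median of 3.25, and at 0.592 to 2.06 CPM at 4 weeks, with a median of 1.25 (log2 fold change 1.79, SE 0.34, adjusted p = 0.000400). Hif3a, a hypoxia-inducible factor subunit, differed by 1.24 (SE 0.23, adjusted p = 0.000275) and the cell cycle inhibitor Cdkn1a by 0.71 (SE 0.14, adjusted p = 0.000919), each with 7 of 8 mice at 3 h above all at 4 weeks. Nfkbia, an inhibitor of NF-kappaB, was called at 0.56, Klf15 at 0.38 and Sult1a1 at 0.94. The zinc finger factor Zbtb16 was at 36.1 to 64.4 CPM against 18.8 to 44.7 CPM (0.64, SE 0.19, adjusted p = 0.0382), and lost its call without 3 h replicate 4, 7 or 8 or 4 week replicate 1, 5, 6, 7 or 8 (adjusted p up to 0.189 over all settings). Plin4 overlaps Hdgfl2 on the opposite strand, so its reads are less certain.

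Members that did not pass included both receptors. Nr3c1, the glucocorticoid receptor, differed by -0.08 (adjusted p = 0.77). The kinase Sgk1 was at 51.0 to 72.4 CPM at 3 h and 44.6 to 54.9 CPM at 4 weeks (0.27, adjusted p = 0.382), and the metallothionein Mt2 at 19.0 to 50.4 CPM against 11.96 to 36.9 CPM (0.69, adjusted p = 0.0821).

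The unfolded protein response was represented by 9 of 18 genes called higher and 0 lower, with a median of 0.26. Xbp1 encodes the factor that is spliced when misfolded proteins gather in the endoplasmic reticulum. It was at 81.4 to 131 CPM at 3 h, with a median of 114, and at 66.1 to 77.8 CPM at 4 weeks, with a median of 72.3, with no overlap (log2 fold change 0.61, SE 0.07, adjusted p = 1.26e-07). Hspa5, the main chaperone of this compartment, was at 299 to 566 CPM with a median of 417, against 248 to 309.9 CPM with a median of 299, and 7 of the 8 mice at 3 h lay above all at 4 weeks (log2 fold change 0.54, SE 0.09, adjusted p = 6.58e-05). The disulfide isomerase Pdia4 was at 37.3 to 78.8 CPM against 36.8 to 40.7 CPM (0.64, SE 0.10, adjusted p = 3.46e-05). Sdf2l1, a partner of Hspa5, was at 7.79 to 20.05 CPM against 5.97 to 8.48 CPM (0.91, SE 0.18, adjusted p = 0.000488). For 7 of the 9 called genes, replicate 1 was the lowest mouse at 3 h.

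Pdia6 (0.42), Creld2 (0.61), Manf (0.40), Calr (0.28) and Hyou1 (0.25) completed the called set. Genes of the branch that runs through Atf4 did not pass, Atf4 itself at 0.19 (adjusted p = 0.152) and Ddit3 at 0.26 (adjusted p = 0.296).

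Of the 9 genes called higher, 7 had a RefSeq promoter window. The endoplasmic reticulum stress response element, spelled CCAAT and CCACG with 9 bases of any kind between them and searched on both strands, stood in the windows of Hspa5, Pdia6, Creld2 and Calr, and in 0.119% of all 32851 windows. The 250 bases before the start of these genes are given with the element in capitals, as members that moved together and share it. They lie at chr2:34771840-34772089 for Hspa5, chr12:17266339-17266588 for Pdia6 and chr15:88819396-88819645 for Creld2, all on the plus strand, and at chr8:84846932-84847181 on the minus strand for Calr (GRCm38.p6). The element begins 65 bases before the start in Hspa5, 98 in Pdia6, 126 in Creld2 and 162 in Calr, and reads on the opposite strand in the last pair.
Hspa5: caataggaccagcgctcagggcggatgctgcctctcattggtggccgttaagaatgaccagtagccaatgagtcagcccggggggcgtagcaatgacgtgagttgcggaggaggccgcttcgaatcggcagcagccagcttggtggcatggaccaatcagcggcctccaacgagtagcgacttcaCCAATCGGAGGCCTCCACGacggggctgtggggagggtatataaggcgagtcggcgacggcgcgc
Pdia6: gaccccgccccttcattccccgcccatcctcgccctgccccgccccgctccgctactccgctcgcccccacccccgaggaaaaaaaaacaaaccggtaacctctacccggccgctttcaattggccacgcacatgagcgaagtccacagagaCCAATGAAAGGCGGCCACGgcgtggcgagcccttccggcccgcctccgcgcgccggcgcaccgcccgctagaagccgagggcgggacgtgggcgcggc
Creld2: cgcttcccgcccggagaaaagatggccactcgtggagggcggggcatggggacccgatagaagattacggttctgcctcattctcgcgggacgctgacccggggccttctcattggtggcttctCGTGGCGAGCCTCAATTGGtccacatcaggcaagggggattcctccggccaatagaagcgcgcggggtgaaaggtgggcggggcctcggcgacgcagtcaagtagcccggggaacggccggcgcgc
Calr: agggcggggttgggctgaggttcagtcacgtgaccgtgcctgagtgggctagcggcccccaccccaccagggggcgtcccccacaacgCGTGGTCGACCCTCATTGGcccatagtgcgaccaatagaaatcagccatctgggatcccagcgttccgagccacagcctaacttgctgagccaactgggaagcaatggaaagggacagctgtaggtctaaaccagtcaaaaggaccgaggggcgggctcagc
These matches are descriptions of sequence, and their part in the differences was not tested. The full glucocorticoid element, AGAACA and TGTTCT with 3 bases of any kind between them, was found in 0 windows of the 8 glucocorticoid genes called higher that had one, and in 0.00913% of all windows, so its absence from these short windows carries no information on the receptor. The E-box CACGTG, present in 7.15% of all windows, was in windows of Per1, Egr2, Klf4, Fkbp5, Klf15 and Calr. By list of called genes, that was 2 of 14 windows for immediate early factors and 1 of 2 for the core clock. For the glucocorticoid list it was 2 of 11, for the endoplasmic reticulum list 1 of 7 and for the effectors 0 of 3. Per2 and Bhlhe40 had no window to search. The cyclic AMP element TGACGTCA, present in 1.79%, was in none of the windows of the called genes of these lists.

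Of 19 heat shock genes, which encode chaperones of the cytosol, 2 were called higher, 0 lower and 17 did not pass, with a median of 0.19. Dnajb1, an Hsp40 co-chaperone, was at 63.1 to 121 CPM at 3 h, with a median of 86.0, and at 48.3 to 70.7 CPM at 4 weeks, with a median of 55.1 (log2 fold change 0.57, SE 0.11, adjusted p = 0.000331). Hsph1 differed by 0.22 (SE 0.07, adjusted p = 0.0456), and kept its call in 8 of 26 other settings, losing it without any of 6 libraries at 3 h (replicates 2, 3, 4, 5, 7 and 8) or any of 6 at 4 weeks (replicates 1, 2, 5, 6, 7 and 8), and with the cage as a block (adjusted p = 0.0676). Hspa8 (0.21, adjusted p = 0.0518) and the inducible Hspa1a (0.41, adjusted p = 0.405) did not pass.

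Cirbp, an RNA-binding protein induced by cold, went the other way. It was at 28.0 to 53.7 CPM at 3 h, with a median of 43.2, and at 51.2 to 73.1 CPM at 4 weeks, with a median of 61.3, and 7 of the 8 mice at 3 h lay below all at 4 weeks (log2 fold change -0.53, SE 0.10, adjusted p = 0.000323). Its relative Rbm3 was at 37.5 to 53.8 CPM against 46.3 to 60.3 CPM and did not pass (-0.19, adjusted p = 0.141).

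Among the 22 genes of the cholesterol list, Insig1 and Lss were lower at 3 h, both without overlap between the groups, 0 were higher, and the median was -0.05. Insig1, which holds the sterol sensor in the endoplasmic reticulum, had the smallest p of all genes called lower. It ranged from 52.5 to 73.6 CPM at 3 h, with a median of 61.1, and from 76.5 to 93.4 CPM at 4 weeks, with a median of 82.9 (log2 fold change -0.46, SE 0.07, adjusted p = 8.14e-06). Lss, a late enzyme of the pathway, was at 35.3 to 48.0 CPM against 50.9 to 58.0 CPM (-0.30, SE 0.08, adjusted p = 0.0130). The synthase Hmgcs1 was at 222 to 374 CPM against 247 to 375 CPM and did not pass (-0.17, adjusted p = 0.345).

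Other pathway lists held few calls. In glycolysis, Aldoc alone of 17 genes was called (0.34, SE 0.10, adjusted p = 0.0310). This aldolase of astrocytes lost its call without 3 h replicate 3, 4 or 7 or 4 week replicate 1 or 4, and with the cage as a block (adjusted p = 0.0560), with an adjusted p of up to 0.239 over all settings. Of 19 collagen and matrix genes, the collagen chaperone Serpinh1 was higher (0.59, SE 0.17, adjusted p = 0.0343) and Col11a1 lower (-0.80, SE 0.20, adjusted p = 0.0122). Serpinh1 lost its call in 15 of 26 settings, among them those without 3 h replicate 3, 4, 6 or 8 or without 4 week replicate 1, 2, 4, 6 or 8 (adjusted p up to 0.223), and Col11a1 in 3, among them that without 4 week replicate 6 (adjusted p up to 0.0732). Dcx, a microtubule protein of migrating neuroblasts, was the only call among 17 genes of immature neurons. It is also 1 of the olfactory bulb and neuroblast markers, whose summed level was 65.8 to 96.9 CPM at 3 h and 93.7 to 162 CPM at 4 weeks, and their part in the result was not tested. Dcx was at 16.8 to 47.9 CPM at 3 h, with a median of 34.6, and at 40.4 to 63.6 CPM at 4 weeks, with a median of 55.8 (-0.67, SE 0.16, adjusted p = 0.00698).

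No serotonin receptor passed edgeR's test, 0 of 12. Htr2a, the main target of psilocybin, was at 44.0 to 94.8 CPM at 3 h and 40.3 to 95.0 CPM at 4 weeks (log2 fold change -0.00, SE 0.16, adjusted p = 0.996). Htr2c was at 9.82 to 22.6 CPM against 13.5 to 54.1 CPM (-0.62, SE 0.27, adjusted p = 0.196), and its highest mouse was 4 week replicate 6, the library highest in striatal markers. None of the 8 mitochondrially encoded messenger RNAs tested was called (median -0.18), nor any of 79 ribosomal protein genes (median 0.16). Of the ribosomal genes, 77 had a positive sign in the full fit, 78 within pool C and 31 within pool D.

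Several of the most strongly supported genes lay outside these lists, named as the 10 with the lowest p-value in either direction. Gpr17, a receptor of newly formed oligodendrocytes, was at 76.0 to 115 CPM at 3 h and 44.2 to 66.4 CPM at 4 weeks (log2 fold change 0.80, SE 0.09, adjusted p = 4.40e-09). Banp, a nuclear matrix protein, was at 29.1 to 48.5 CPM against 17.4 to 22.3 CPM (0.85, SE 0.10, adjusted p = 7.61e-08). Neither overlapped. Gpt2, a mitochondrial alanine aminotransferase, differed by 0.63 (SE 0.08) and the deubiquitinase Otub2 by 0.61 (SE 0.08), each with an adjusted p of 1.26e-07 and 7 of 8 mice at 3 h above all at 4 weeks. Among the genes called lower, Gfpt2, an enzyme of hexosamine synthesis, was at 5.62 to 9.79 CPM against 9.08 to 15.6 CPM (-0.69, SE 0.11, adjusted p = 1.97e-05). The mitochondrial carrier Ucp3 was at 2.59 to 4.605 CPM against 4.57 to 6.33 CPM (-0.75, SE 0.12, adjusted p = 2.04e-05).

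The transcription factors Zkscan2 and Klf11 differed by -0.66 and -0.65, Cc2d1b by -0.43, and the noncoding genes 2810429I04Rik, Gm16835 and Lrp8os2 by -1.09, -0.70 and -1.97. Lrp8os2 is antisense to Lrp8 and Gm16835 to Uggt2. Bhlhe40, Gpr17, Banp, Ucp3 and Cc2d1b also overlap a tested gene on the opposite strand, among them Lims2 for Gpr17 and 0610040F04Rik for Bhlhe40. Since the strand setting of the counting is not clearly given, reads of such partners may be mixed and these values are less certain. Of the 49 named genes that were called, 49 kept their direction in all 26 other settings, and 38 kept their call in all 26.

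No marker of cortical excitatory neurons (12 tested), interneurons (12), myelinating oligodendrocytes (12), endothelium (10), mural and meningeal cells (13), thalamus (9) or red blood cells (5) was called, nor any of 8 wound healing and immune genes. In the glial lists the calls were Gpr17 among 10 genes of the oligodendrocyte lineage before myelination, Aldoc among 10 of astrocytes and Tmem119 among 12 of microglia. The medians of these lists are given by pool as a description, since 0 genes were called in edgeR's test of the difference between the pools (1242 at an unadjusted p under 0.05). For myelin genes the median log2 fold change was 0.28 within pool C and -0.20 within pool D, for microglial genes 0.35 and -0.10, and for red blood cell genes 0.98 and -0.28. Of 9 olfactory bulb and neuroblast genes, Dcx was called lower and 8 had a negative log2 fold change, with a median of -0.48. Their part in the calls was not tested.

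The genes called lower at very low levels moved with a few libraries. Of the 86 called lower under 1 CPM, the highest library was 4 week replicate 6 for 27, 4 week replicate 3 for 19 and a mouse at 3 h for 1. When the fit was limited to the PFC libraries, 20 of the 86 were called, whereas 291 of the 400 genes over 10 CPM that were called higher were. Hypothalamic markers were among them: Otp, Nkx2-1 and Gal were called lower, 3 of 12 in their list. Otp, a homeobox factor of hypothalamic neurons, was at 0 in 6 of 8 libraries at 3 h, and reached 1.29 CPM, or 90 reads, in 4 week replicate 3. Gal, the neuropeptide galanin, had a median of 0.194 CPM at 3 h and 0.110 CPM at 4 weeks, but 4.24 CPM in 4 week replicate 3. Isl1, the only striatal marker called of 13, had its highest level in 4 week replicate 6, at 5.46 CPM, and Prlr, the only one of 10 choroid plexus markers, in 4 week replicate 3, at 7.57 CPM. Within pool C the median log2 fold change was -1.18 for the hypothalamic and 0.01 for the striatal list, and within pool D 0.39 and -1.49. The part of neighbouring tissue in these calls was not tested.

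The same interval was then compared in mice that had received psilocybin, 8 at 3 h and 7 at 4 weeks after 1 library with almost no reads was left out. In the PFC of those mice 1131 genes (5.96%) differed between 3 h and 4 weeks, 513 higher at 3 h (2.7%) and 618 lower (3.26%). Of the 453 genes called higher after saline, 451 had the same sign after psilocybin and 253 were called there, which is 55.8% of the first list and 49.3% of those called higher after psilocybin. Of the 443 called lower, 417 had the same sign and 172 were called, 38.8% of the first list and 27.8% of those called lower after psilocybin. Per2 differed by 0.90, Arc by 2.40 and Fkbp5 by 1.32 on the log2 scale after psilocybin, beside 1.12, 1.68 and 0.86 after saline.

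The test of the difference itself, saline minus psilocybin, called 0 of 18971 genes in edgeR, with 585 at an unadjusted p under 0.05. DESeq2 called 4, Pon1, Ambp, Mug1 and Cyp2a4, and limma with quality weights called Espl1, all named after their values were seen. The log2 differences in DESeq2 were -15.4, -15.7, -17.6 and -21.6, and that of Espl1 in limma was 1.63. Differences as extreme as the first 4 are not reliable as sizes, and none of the 5 genes passed in edgeR. Of the named genes, Ucp3 (difference -0.70, unadjusted p = 0.000118) and Insig1 (-0.36, unadjusted p = 0.000524) had the smallest p-values, and their adjusted p was 1. In the endoplasmic reticulum list 1 of 18 genes, Xbp1, was called after psilocybin, where Hspa5 differed by 0.26 (adjusted p = 0.081) beside 0.54 after saline, but the difference of 0.27 for Hspa5 did not pass.

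**Figure D4:**
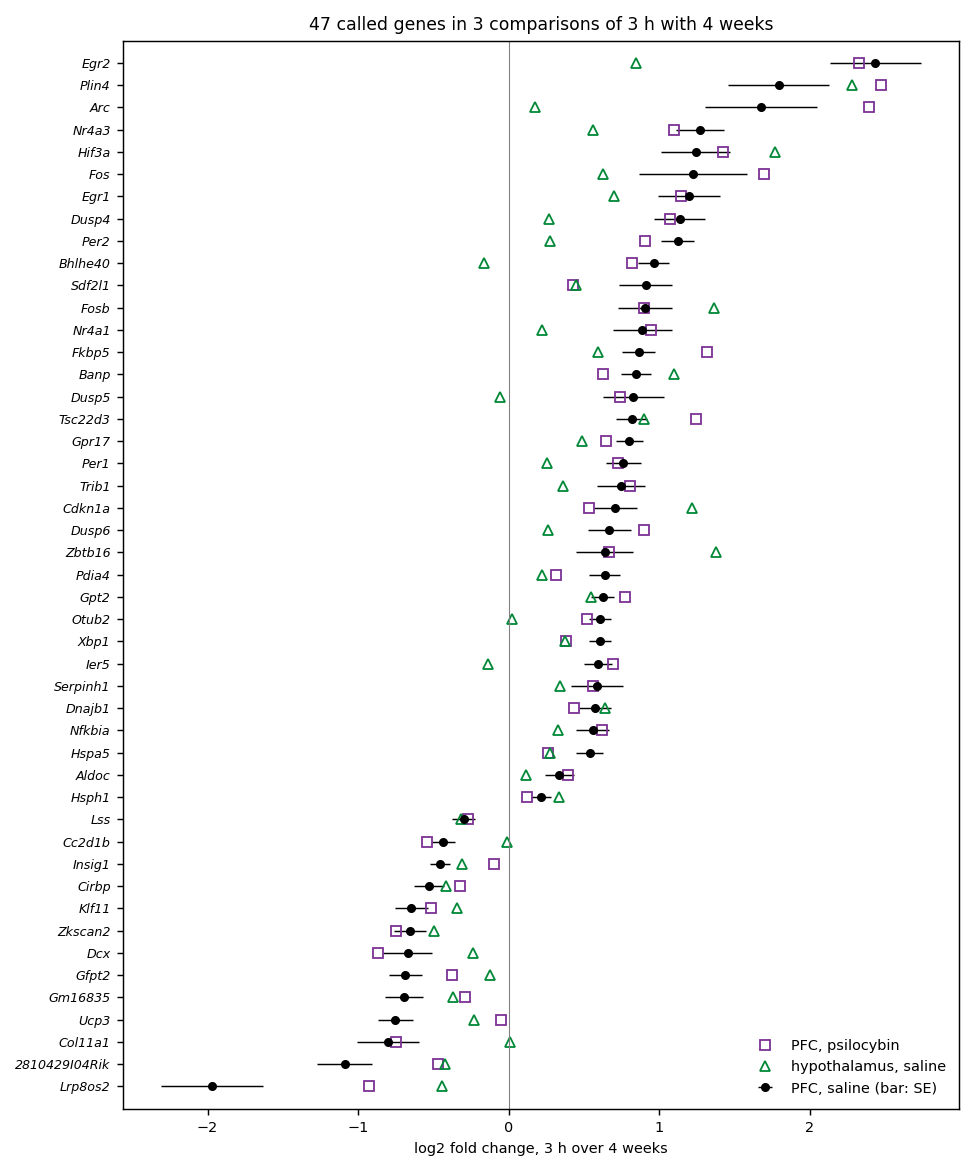
Log2 fold change of 3 h over 4 weeks for named genes called in the PFC of saline-injected mice (filled, bars are SE), beside the PFC of psilocybin-injected mice (squares) and the hypothalamus of saline-injected mice (triangles). Nearly all squares lie on the same side of 0 as the filled points, whereas triangles lie near 0 for Bhlhe40, Otub2, Ier5 and Arc and beyond the filled points for Zbtb16 and Cdkn1a.

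In the hypothalamus of the same saline-injected mice, with 1 library at 3 h left out for almost no reads, 130 genes (0.685%) differed between 3 h and 4 weeks, 99 higher at 3 h (0.522%) and 31 lower (0.163%). Of the 453 genes called higher in the PFC, 58 (12.8%) were called higher there, 58.6% of those 99, and of the 443 called lower, 16 (3.61%), 51.6% of those 31. The glucocorticoid list gave 9 called higher of 23 there as well, with a median of 0.46, whereas the immediate early list gave 2 of 25 and a median of 0.22. The difference between the regions, PFC minus hypothalamus, was called for 7 genes (0.0369%), 6 of them positive (0.0316%) and 1 negative (0.00527%), for 14 without 3 h replicate 6, and for 12 to 16 without 4 week replicate 1, 2, 4, 5 or 8. Bhlhe40 differed most clearly. It was at 199 ± 40.3 CPM (SD, n = 8) at 3 h and 102 ± 16.2 CPM at 4 weeks in the PFC, and at 71.6 ± 7.53 CPM (n = 7) and 79.5 ± 6.55 CPM (n = 8) in the hypothalamus, so that the log2 fold changes were 0.96 and -0.16 (difference 1.12, adjusted p = 5.33e-06). Per2 was at 25.9 ± 2.33 CPM (SD, n = 7) at 3 h and 21.5 ± 2.07 CPM (n = 8) at 4 weeks in the hypothalamus, a log2 fold change of 0.28 beside 1.12 in the PFC (difference 0.85, adjusted p = 0.0116).

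Otub2 (0.61 against 0.02) and Ier5 (0.59 against -0.14) also had a larger log2 fold change in the PFC, each with an adjusted p of 0.0116 for the difference. Inka2 and Alox12b had opposite signs in the regions, 0.44 and -0.41 for the former and 0.51 and -0.99 for the latter. Neither was called in both regions by edgeR. Inka2 passed in the PFC (adjusted p = 0.00856) but not in the hypothalamus (0.137). Alox12b passed in the hypothalamus (adjusted p = 0.0344) but not in the PFC (0.0604). The seventh gene, Foxb1, had at most 1 read in any PFC library at 3 h and at most 19 at 4 weeks, so its difference rests on counts near 0. For Sgk1 the log2 fold change was 0.27 in the PFC and 1.16 in the hypothalamus, and for Zbtb16 0.64 and 1.38, and neither difference passed (adjusted p = 0.18 and 0.658).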

How the data were processed

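RNA of 1 library per mouse and region was sequenced after stranded poly-A selection. Per the labels and the study's methods, the authors demultiplexed with bcl2fastq 2.20.0, aligned with STAR 2.7.2b to GRCm38 and counted reads per gene with featureCounts 1.6.2. The deposited table holds raw counts for 55401 genes. The strand setting is not clearly given in the sources used here.

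Libraries under 1000000 reads were left out, which removed 2 of 64, neither of them in the groups compared. The study's methods also exclude a sample enriched in wound healing and immune genes, which the sources used here do not name. No library was left out for this in the main fit, and hypothalamus psilocybin 4 weeks replicate 5 was left out as an alternative. Counts were analysed with edgeR 4.0.16 in R 4.3.3 (filterByExpr with a minimum count of 10, TMM, robust quasi-likelihood) in 1 fit of 62 libraries with group and extraction pool within region, and Benjamini-Hochberg adjustment over 18971 genes at a threshold of 0.05. Log2 fold changes are of 3 h over 4 weeks. Symbols came from the reference table, with 21 tested genes unmatched, and promoters from RefSeq (GRCm38.p6). The fit was tested on simulated data.

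Alternatives were DESeq2 1.42.0, limma 3.58.1 with quality weights, other size factors, no filter, fewer libraries, no pool, cage as a block and each library left out. Replicate numbers are cage numbers in the labels. Deviations of cage mates from their group means correlated between -0.181 and 0.203 (mean 0.00166), so cage stayed an alternative. No libraries were duplicates (smallest chi-square per degree of freedom 5.09 over the pairs). Named were the 10 genes with the smallest p in each direction, a set of anchor genes, the leading members of each pathway list and the leading genes of each difference. The comparison, its gene lists and these rules were chosen with earlier results of these data known. Some genes that met the rule are not reported here.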

Additional observations from a re-analysis of the deposited data

Results flagged for a closer look

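Within each group of 8 mice, the highest and lowest values of the named genes and marker sums were checked for a sample far from the rest by Dixon's criterion. Of 248 such groups 18 (7.26%) held one, where chance gives about 1 in 20. Genes of neuronal activity were high in 4 week replicate 3, with Arc at 249.8 CPM, Npas4 at 33.5, Nr4a1 at 108, Per1 at 94.3, Dusp4 at 8.38 and Egr2 at 4.85 CPM. In 4 week replicate 6, the summed striatal markers reached 2249 CPM, Cry1 19.9, Hspb1 5.22, Htr1d 6.47 and Lrp8os2 4.99 CPM. In 3 h replicate 6, myelin genes summed to 7414 CPM, Mbp to 3113 CPM, striatal markers to 812 CPM and choroid plexus markers to 38.9 CPM. Npas4 was at 32.3 CPM in 3 h replicate 1, cholesterol genes summed to 1771 CPM in 3 h replicate 5, and olfactory bulb markers to 162 CPM in 4 week replicate 5.

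The log2 fold change of 3 h over 4 weeks differed between PFC and hypothalamus, by an interaction term in edgeR, by 1.12 for Bhlhe40, 0.85 for Per2, 0.59 for Otub2, 0.73 for Ier5, 0.85 for Inka2, 1.5 for Alox12b and -3.50 for Foxb1, whose counts were near 0 in the PFC.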

How the results depend on the processing

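The count of called genes ranged from 310 to 1571 over the 26 alternatives. It was 1478 (749 higher, 729 lower) with limma and quality weights, 425 (179 and 246) with no filter on low counts, 310 (187 and 123) with only the groups of the contrast, 1571 (838 and 733) without 1 hypothalamus library, and 579 (295 and 284) without the 3 libraries high in striatal markers, the last chosen after seeing the data. Leaving out 1 PFC library gave 480 to 1378 genes, 256 to 676 higher and 224 to 702 lower. With the cage number as a replicate block it was 795 (394 higher, 401 lower), and 761 of the 896 genes were called there; among the named genes the block removed the calls of Aldoc and Hsph1. With DESeq2 4 genes and with limma 1 gene differed between saline and psilocybin, and 0 in edgeR with any library left out. Between the regions, 20 genes were called with DESeq2, 29 with limma, 2 with no filter, 3 with only the groups of the contrast, 16 without the hypothalamus library, and 6 to 16 with 1 PFC library left out.

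Of the 896 genes, 4 had the opposite sign without 4 week replicate 3 and 1 with limma. With only the groups of the contrast Arc, Dcx, Nr4a1 and Trib1 lost their calls (adjusted p = 0.0774 for Dcx, 0.0823 for Nr4a1 and 0.0730 for Trib1), and with no filter Lss did (adjusted p = 0.0566). Of the named genes that did not pass, 11 passed in at least 1 alternative, Tef in 8, Csnk1d in 6 and Bdnf, Hspa8 and Mt2 in 5. Among the named genes, the sign turned only for these, none of which passed. Htr2a was at 0.0013 with DESeq2, 0.0078 without the striatal libraries and -0.181 to 0.0731 with 1 library left out. Mbp was at -0.039 with no pool, -0.00056 without the striatal libraries and -0.0773 to 0.0859 with 1 library left out. Htr1d was at 0.21 without the striatal libraries. With 1 library left out, Arntl lay at -0.0525 to 0.0229 and Npas4 at -0.00557 to 0.406. The cause of these shifts was not tested. Depth limits the genes under 1 CPM, such as Otp, Nkx2-1, Gal and Isl1, which had 0 reads in some libraries of both groups.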
